A study of Mus musculus with 6 samples.

Results

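The genes described here are 30 genes of cholesterol synthesis and its control by the sterol regulatory element-binding proteins (SREBPs), chosen by gene symbol from a named list of 18 synthesis enzymes, 5 genes of SREBP control and 7 genes of the liver X receptor (LXR) pathway, lipoprotein uptake and sterol storage. All 30 were present once among the 55487 genes of the count table, and all 30 passed the filter on low counts that left 14531 genes for testing. The samples were mouse pulmonary artery smooth muscle cells (mPASMCs), purchased primary cells used at low passage. They were transfected with a control siRNA (si-NC) or with an siRNA against the long noncoding RNA *Snhg18* (si-*Snhg18*), and 3 libraries numbered 1 to 3 were sequenced from each group. Both groups had been through the same kind of transfection. The labels and methods do not state the oxygen level, the time after transfection, or whether the libraries came from separate cultures, so that the p-values below measure the spread between these libraries, which may be technical.

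Cholesterol is built from acetyl-CoA through mevalonate, the isoprenoid diphosphates, squalene and lanosterol. The SREBP transcription factors are held in the endoplasmic reticulum (ER) by the escort protein Scap and the retention proteins Insig1 and Insig2 when ER sterols are high. When sterols fall, Scap carries SREBP to the Golgi, where proteases release the part that enters the nucleus and acts on promoters of synthesis genes. The *Insig1* gene is itself a target of SREBP. The LXR receptors sense oxysterols and raise genes of sterol export. Smooth muscle cells of arteries use both pathways, and cultured cells also take sterol from serum.

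The promoters of 3 members are shown because *Hmgcs1* and *Mvd* were higher and *Insig1* was lower in the si-*Snhg18* libraries. In edgeR with all libraries, *Mvd* was called only with the block described below. Their upstream sequences share letters that most members with a window also hold, as given below. Each is written 5′ to 3′ on the strand of the gene and ends at, or before, the RefSeq start of transcription on GRCm38.p6. Capitals mark a sterol regulatory element (SRE, searched as TCACNCCAC), a CCAAT box (CCAAT) or a GC box (GGGCGG), each searched on both strands, with no overlap between the marked matches. *Hmgcs1* (chr13:119690101-119690350, plus strand) holds 1 SRE, 3 CCAAT boxes and 2 GC boxes. *Mvd* (chr8:122443423-122443672, minus strand) holds 2 CCAAT boxes and 1 GC box. *Insig1* (chr5:28071162-28071362, plus strand, ending where the gene of the count table begins) holds 1 CCAAT box and 3 GC boxes.
Hmgcs1: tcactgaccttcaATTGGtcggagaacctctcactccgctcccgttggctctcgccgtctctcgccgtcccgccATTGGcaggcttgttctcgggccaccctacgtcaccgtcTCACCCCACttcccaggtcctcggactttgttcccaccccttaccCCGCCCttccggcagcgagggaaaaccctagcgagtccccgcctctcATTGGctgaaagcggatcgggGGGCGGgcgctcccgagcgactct
Mvd: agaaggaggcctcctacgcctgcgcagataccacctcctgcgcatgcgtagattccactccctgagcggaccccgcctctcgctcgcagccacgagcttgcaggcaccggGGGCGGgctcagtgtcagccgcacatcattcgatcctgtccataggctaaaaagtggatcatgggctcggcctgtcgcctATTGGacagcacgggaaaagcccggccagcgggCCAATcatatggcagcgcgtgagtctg
Insig1: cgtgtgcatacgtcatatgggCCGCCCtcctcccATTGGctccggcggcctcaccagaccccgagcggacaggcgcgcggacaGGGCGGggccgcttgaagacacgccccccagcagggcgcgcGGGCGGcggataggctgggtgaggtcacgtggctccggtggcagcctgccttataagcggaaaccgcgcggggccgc

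The SRE of *Hmgcs1* lies 137 to 129 bases before the RefSeq start. Promoter windows of 250 bases were found for 25 of the 30 members. *Abcg1*, *Fdps*, *Fdft1*, *Sqle* and *Stard4* had none in the table used. *Hmgcs1* was the one member among the 25 whose window held these SRE letters, against 1.3% of the 10536 tested genes with a window. A CCAAT box was present in 20 of 25 members (80%) and in 14 of the 15 synthesis enzymes, against 40.76% of the tested genes. The GC box was present in 21 of 25 members (84%) and in 14 of the 15 enzymes, against 63.66% of the tested genes. These are matches of letters and not measured binding sites. Both *Mvd*, which rose with the block described below, and *Idi1*, which fell, held both boxes.

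*Snhg18* itself was at 23.5, 22.4 and 22.2 CPM (reads of a gene per 1000000 counted reads, scaled by TMM factors) in si-NC 1 to 3 and at 10.6, 11.2 and 9.97 CPM in si-*Snhg18* 1 to 3. The groups did not overlap, and 46.7% of the control level remained. On the log2 scale it fell by 1.10 ± 0.10 (here and below ± SE for log2 values from edgeR's quasi-likelihood test, adjusted p = 0.00727), and the exact permutation test gave p = 0.1, the smallest two-sided value that 3 against 3 libraries allow. The adjusted p was 0.0659, 0.0700 and 0.0703 without si-NC 1, si-NC 3 or si-*Snhg18* 3. Library totals ranged from 18097718 to 25988746 reads, and a member had between 130 reads (*Fdps*) and 11926 reads (*Sc5d*) in a library. A count of 3 reads, taken as a floor for counting error, was 0.115 to 0.164 CPM.

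In the cells as labelled, the 6 smooth muscle markers summed to 1725 to 1867 CPM in si-NC libraries and 1189 to 1813 CPM in si-*Snhg18* libraries. *Tagln* fell by 0.51 on the log2 scale (adjusted p = 0.0427). With the block *Tagln*, *Myh11*, *Cnn1* and *Des* of the 6 were lower, where 13.6% of all genes were called lower. Several defining markers of other cells were near 0. *Pecam1* of endothelium had at most 14 reads, *Ptprc* and *Itgam* of leukocytes at most 8 and 3 reads, and *Epcam* and *Cdh1* of epithelium at most 3 and 1 reads in any library. The 4 endothelial markers summed to 10.9 to 12.3 CPM in si-NC libraries and 10.9 to 12.2 CPM in si-*Snhg18* libraries, mostly *Cdh5*, while *Tek* of these fell by 1.47 on the log2 scale with the block (adjusted p = 0.0341). The 3 epithelial markers summed to 7.08 to 22.3 CPM and 1.11 to 7.31 CPM, mostly *Krt18*, which was lower with the block. The 3 fibroblast markers summed to 484 to 560 CPM in si-NC libraries and 354 to 463 CPM in si-*Snhg18* libraries, and *Pdgfra* of these was lower with the block. In bulk RNA, fewer cells of a type and less RNA per cell cannot be told apart, and the part of these markers in the results below was not tested.

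The comparison of si-*Snhg18* with si-NC asked which sterol genes moved with the knockdown. Of the 30 members, *Hmgcs1* and *Scap* were higher and *Insig1* was lower at an adjusted p under 0.05. Over all 14531 genes, 3.65% were called higher and 3.71% lower, against 2 and 1 of the 30 members. An unadjusted p under 0.05 was reached by 10 of the 30 members and by 24.9% of all genes. The levels of the 2 groups did not overlap for 11 of the 30 members, against 30.9% of all genes. The median log2 fold change was 0.18 over the members and 0.0072 over all tested genes.

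Same-numbered libraries deviated together, but so did libraries numbered 1 and 3, so the pairing is an assumption. With the number as a replicate block 14 of the 30 members were called. *Hmgcs1*, *Mvd*, *Lss*, *Nsdhl*, *Sc5d*, *Scap*, *Abcg1*, *Mylip* and *Stard4* rose and *Idi1*, *Hsd17b7*, *Msmo1*, *Insig1* and *Nr1h2* fell. The background with the block was 13.6% of all genes called higher and 13.6% called lower, set against 9 of 30 and 5 of 30 members. An unadjusted p under 0.05 with the block was reached by 21 of the 30 members and by 40% of all genes. DESeq2 with the block called 12 of the 14 and not *Msmo1* or *Nr1h2*. The 3 calls without the block depended on single libraries, as did calls over the whole table. No member was called in edgeR without si-NC 1, si-NC 2, si-NC 3 or si-*Snhg18* 3 (7, 8, 8 and 6 at an unadjusted p under 0.05). Over all genes 0, 158, 0 and 0 were called in these fits. Without si-*Snhg18* 1 the calls were 1 member and 319 genes, and without si-*Snhg18* 2 they were 6 members and 3282 genes. With the block, 16 members were called without the pair numbered 1, 12 without the pair numbered 2, and 2 (*Idi1* and *Insig1*) without the pair numbered 3. The whole table had 4542, 3504 and 651 called genes in these blocked fits.

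**Figure D1:**
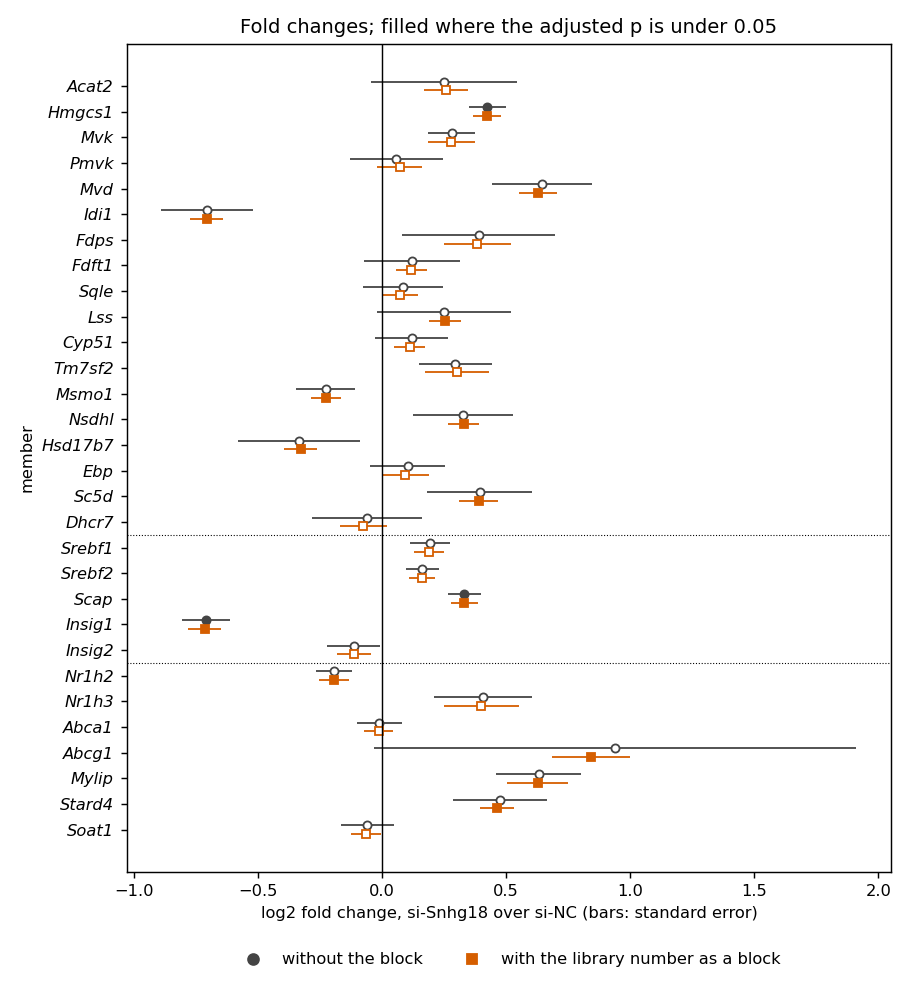
Log2 fold changes of si-*Snhg18* over si-NC for the 30 members, with standard errors, from the fit without the block (circles) and with the library number as a block (squares). Symbols are filled where the adjusted p was under 0.05, which holds for 3 members without the block and 14 with it, and the bars of most enzymes are shorter with the block.

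The number of the library was then set against the siRNA. In a fit holding both, 15 of the 30 members were called for the number, against 13.8% of all genes. Of the 18 synthesis enzymes 13 were called, of the 7 LXR, uptake and storage genes 2 (*Abcg1* and *Stard4*), and of the 5 SREBP control genes none. At an unadjusted p under 0.05 for the number there were 19 of the 30 members, against 31.8% of all genes, and 1 of them was among the SREBP control genes, of which DESeq2 also called none for the number. None of the 3 members called for the siRNA without the block was called for the number, and of all 1069 genes called this way 3.37% were. That fit counts differences between numbers as spread, so a small overlap follows from it and says nothing about these members. Of the 14 members called with the block 8 were also called for the number, against 23.2% of all 3954 genes called with the block. The library numbered 2 held the lowest level in both groups for 23 of the 30 members, against 29.8% of all genes, a pattern chosen after the values were seen. It held for 15 of 18 enzymes, 4 of 5 SREBP control genes and 4 of 7 LXR, uptake and storage genes.

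When the sum of squares of log2 CPM over the 6 libraries was split, the number took a median of 76.7% and the siRNA 20.8% in the synthesis enzymes. In the SREBP control genes the order was turned, with 23.0% for the number and 76.1% for the siRNA. The LXR, uptake and storage genes had 48.1% and 46.7%, and all tested genes 43.2% and 31.6%. The number took more than the siRNA in 13 of 18 enzymes (72.2%), in 1 of 5 SREBP control genes, in 3 of 7 LXR, uptake and storage genes, and in 56.5% of all genes. These shares are a description without a test. The number has more degrees of freedom than the siRNA in this layout, so it takes the larger share of random spread on average. Across the 30 members, the pairs of equal number had correlated deviations from their group means, at r = 0.872, 0.967 and 0.908 in the order of the numbers. Libraries of unlike number also correlated, with 0.760 and 0.906 between numbers 1 and 3, and the members are not independent of each other.

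**Figure D2:**
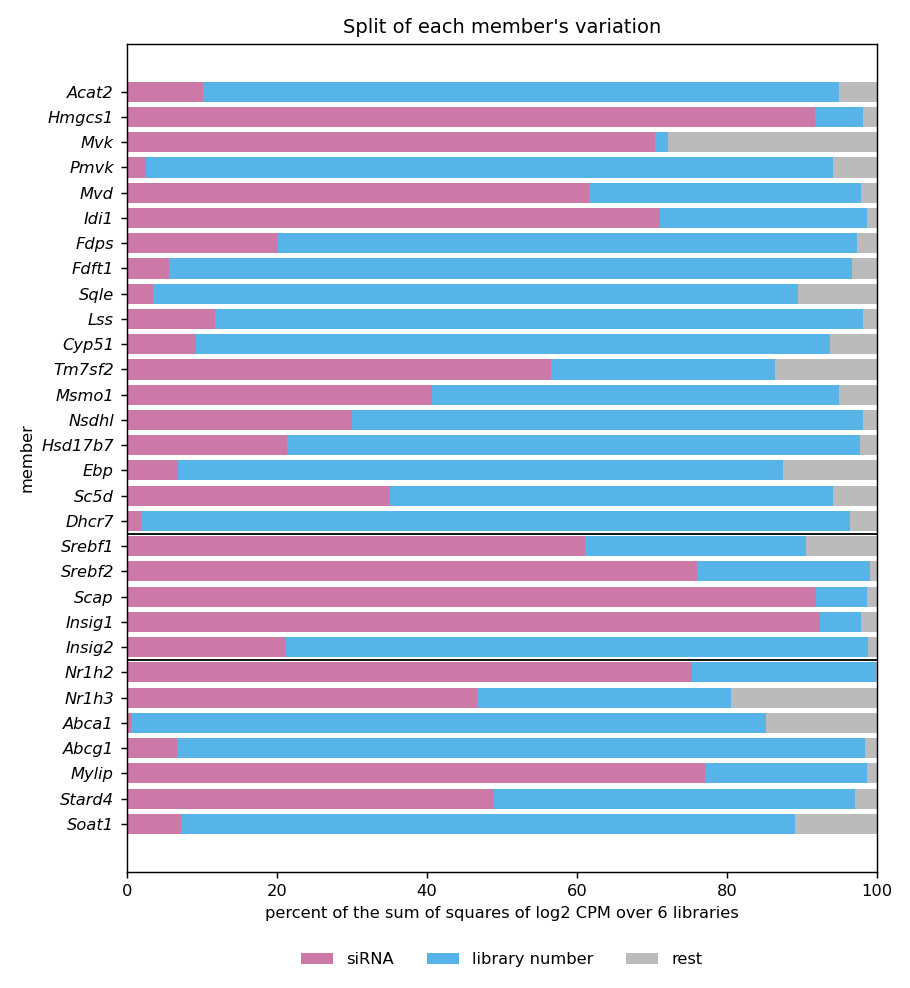
Percent of each member's sum of squares of log2 CPM over the 6 libraries that went with the siRNA, the library number and the rest. Lines divide synthesis enzymes, SREBP control genes and LXR, uptake and storage genes, and the number's part is largest for *Dhcr7* (94.4%) and small for *Hmgcs1*, *Scap* and *Insig1*.

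**Figure D3:**
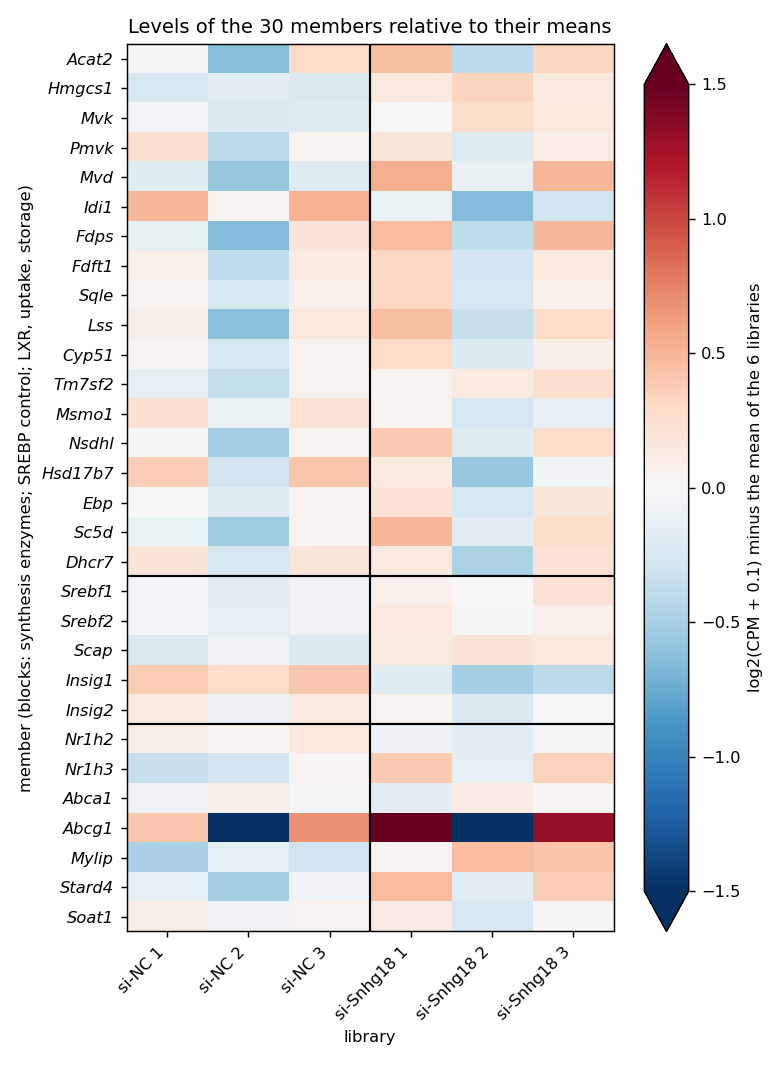
Heat map of log2(CPM + 0.1) of the 30 members in the 6 libraries, each minus its mean over the libraries, with colours limited to 1.5 in either direction. The columns si-NC 2 and si-*Snhg18* 2 are pale blue to blue for most enzymes, and *Abcg1* reaches the limit of the scale there.

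The first of the synthesis enzymes, *Acat2*, makes acetoacetyl-CoA. It was at 71.7, 46.7 and 89.0 CPM in si-NC 1 to 3 and at 99.8, 55.6 and 91.3 CPM in si-*Snhg18* 1 to 3. The library numbered 2 was lowest in each group and the groups overlapped. The number was called (adjusted p = 0.0119) and the siRNA was not (log2 fold change 0.25, adjusted p = 0.643, and between 0.031 without si-NC 2 and 0.48 without si-NC 3). Of its 50-base stretches, 39.1% are shared with *Acat3*, so its counts are uncertain.

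*Hmgcs1* (ENSMUSG00000093930, chr13:119690379-119708260), which makes HMG-CoA, was at 183, 192 and 187 CPM in si-NC and at 241, 273 and 241 CPM in si-*Snhg18*. The groups did not overlap and the highest library of each group was numbered 2, the reverse of most enzymes. It rose from a mean of 188 ± 4.56 CPM to 252 ± 18.4 CPM (± SD over 3 libraries), which is 0.42 ± 0.07 on the log2 scale (adjusted p = 0.0263). The siRNA took 91.8% of its variation. The call was lost without si-NC 1, si-NC 2, si-NC 3, si-*Snhg18* 1 or si-*Snhg18* 3, with adjusted p values of 0.146, 0.0853, 0.123, 0.0573 and 0.115, and at log2 fold changes of 0.41 to 0.46.

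*Mvk* and *Pmvk*, which phosphorylate mevalonate and then phosphomevalonate, differed in how their variation was split. *Mvk* averaged 38.9 ± 2.40 CPM in si-NC and 47.2 ± 4.19 CPM in si-*Snhg18* (adjusted p = 0.135), without overlap, and 70.5% of its variation went with the siRNA. *Pmvk* was at 33.4, 21.4 and 29.4 CPM in si-NC and at 32.2, 24.8 and 30.6 CPM in si-*Snhg18*. The number was called for it (adjusted p = 0.0459) and took 91.5% of the variation, while its log2 fold change was 0.06 (adjusted p = 0.878).

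With the block, the next enzymes of the mevalonate steps moved in opposite directions. *Mvd* (ENSMUSG00000006517, chr8:122433601-122443422), which makes isopentenyl diphosphate, was at 47.8, 36.4 and 47.4 CPM in si-NC and at 79.2, 50.2 and 76.6 CPM in si-*Snhg18*. *Idi1* (ENSMUSG00000058258, chr13:8885501-8892451), which isomerises that product, was at 106, 77.1 and 107 CPM in si-NC and at 69.9, 47.5 and 60.6 CPM in si-*Snhg18*. Both had their lowest level in the library numbered 2 of each group, and neither overlapped between groups. Without the block, *Mvd* was at 0.65 ± 0.20 (adjusted p = 0.109) and *Idi1* at -0.70 ± 0.18 (adjusted p = 0.0722) on the log2 fold scale. With the block these were 0.63 ± 0.08 (adjusted p = 0.00182) and -0.71 ± 0.07 (adjusted p = 0.000894), and over all 16 alternative settings the adjusted p ranged from 1.62e-06 to 0.319 for *Mvd* and from 2.28e-09 to 0.242 for *Idi1*. The ratio of *Mvd* to *Idi1*, a measure chosen after the values were seen, was 0.453, 0.473 and 0.441 in si-NC and 1.13, 1.06 and 1.26 in si-*Snhg18*. Since *Mvd* and *Idi1* were each separated in opposite directions, the separation of their ratio follows from that and adds nothing to it. The level of *Idi1* is uncertain, since 17.7% of its 50-base stretches are shared with 4 other genes.

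From farnesyl diphosphate to lanosterol the enzymes were called for the number. *Fdps* was at 7.73, 5.31 and 9.58 CPM in si-NC and at 11.5, 6.42 and 11.7 CPM in si-*Snhg18*, and 26.2% of its 50-base stretches are shared with 8 other genes. *Fdft1*, the squalene synthase, was at 181, 132 and 188 CPM and at 214, 141 and 190.3 CPM. *Ctsb* overlaps it on the other strand over 774 exon bases with many more reads, and the strand setting of the counting is not given in the sources used here. *Sqle*, the squalene epoxidase, was at 199.97, 164 and 204 CPM and at 239, 160.4 and 203 CPM. *Lss*, the lanosterol synthase, was at 145, 88.9 and 153 CPM and at 187, 108 and 166 CPM. All of these were lowest in both libraries numbered 2, the groups overlapped for each, and adjusted p values for the number were 0.0336, 0.0149, 0.0376 and 0.00703. Only *Lss* of the 4 was called for the siRNA, with the block (0.25 ± 0.07 on the log2 scale, adjusted p = 0.0274, range over the alternatives 0.0268 to 0.951), and the log2 fold changes of *Fdps*, *Fdft1* and *Sqle* were 0.39, 0.12 and 0.09 with adjusted p of 0.479, 0.741 and 0.779. For *Fdps* it was 0.19 once si-NC 2 was left out and 0.62 once si-*Snhg18* 2 was left out.

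Of the 8 enzymes that turn lanosterol into cholesterol, 5 were called for the number and 4 for the siRNA with the block. *Cyp51*, the lanosterol demethylase, was at 332, 268 and 332 CPM in si-NC and at 393, 279 and 341 CPM in si-*Snhg18*, with the number called (adjusted p = 0.0334) and a log2 fold change of 0.12 (adjusted p = 0.663). It overlaps *Akap9* on the other strand over 166 exon bases. *Nsdhl*, of the C-4 demethylation, was at 91.9, 65.1 and 97.1 CPM and at 123, 82.7 and 113 CPM. *Sc5d*, a sterol desaturase, was at 312, 229.9 and 346 CPM and at 472, 296 and 399.9 CPM. In *Nsdhl* and *Sc5d* each si-*Snhg18* library was above its same-numbered si-NC library, while the groups as a whole overlapped. With the block they rose by 0.33 and 0.39 on the log2 scale (adjusted p = 0.00935 and 0.0116), against adjusted p of 0.360 and 0.303 without it. Over the alternatives, blocked or not, the adjusted p ranged from 0.00243 to 0.680 and from 0.000688 to 0.600. With the block and a pair left out it was at most 0.0772 and 0.0591.

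Of the other enzymes from lanosterol on, *Msmo1* and *Hsd17b7* were lower with the block. *Msmo1*, a C-4 sterol oxidase, was at 263, 211 and 260.1 CPM in si-NC and at 232, 189 and 206 CPM in si-*Snhg18*. *Hsd17b7*, a sterol ketone reductase, was at 201, 126 and 207 CPM and at 170.4, 104.5 and 149 CPM. Each si-*Snhg18* library was below the si-NC library of its number, and the libraries numbered 2 were the lowest of both groups. With the block they fell by 0.22 and 0.33 on the log2 scale (adjusted p = 0.0325 and 0.0120, for *Msmo1* 0.0653 in DESeq2 with the block, ranges over the alternatives 0.00267 to 0.568 and 5.3e-05 to 0.719), and without it adjusted p was 0.293 and 0.447. *Dhcr7*, the last reductase of the branch, was at 24.9, 17.97 and 24.6 CPM and at 23.9, 15.5 and 25.3 CPM, and the number took 94.4% of its variation (adjusted p = 0.0322 for the number), with a log2 fold change of -0.06 for the siRNA (adjusted p = 0.891). *Tm7sf2*, a sterol reductase, averaged 9.35 ± 1.34 CPM against 11.5 ± 0.777 CPM (adjusted p = 0.274) and shares 532 exon bases with *Vps51* on the same strand. *Ebp*, a sterol isomerase, averaged 25.4 ± 2.15 CPM against 27.4 ± 4.79 CPM (adjusted p = 0.714). Per exon length, the enzymes ranged from a mean of 7.04 RPKM (CPM per 1000 bases of exon) for *Fdps* to 111 RPKM for *Msmo1*. Over the 18, the median log2 fold change was 0.19, but it was 0.034 without si-NC 2 and 0.052 without si-*Snhg18* 1.

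Among the 15 enzymes lowest in both libraries numbered 2, the mean of the libraries numbered 1 and 3 was 1.16-fold (*Ebp*) to 1.72-fold (*Acat2*) above number 2 in si-NC. In si-*Snhg18* it was 1.16-fold (*Msmo1*) to 1.81-fold (*Fdps*). The medians of these folds were 1.40 and 1.43, and the choice of enzymes sets their direction. The same fold was 0.963 and 0.883 for *Hmgcs1*, 1.07 and 0.883 for *Mvk*, and 1.25 and 1.01 for *Tm7sf2*, the enzymes left out, in si-NC and si-*Snhg18* in turn.

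In 4 of the 5 SREBP control genes the siRNA took more of the variation than the number. *Srebf1* was at 117, 107 and 114 CPM in si-NC and at 127, 119.8 and 140.1 CPM in si-*Snhg18*, and it overlaps *Rai1* on the other strand over 109 exon bases. *Srebf2*, the SREBP that acts chiefly on cholesterol genes, was at 302, 284 and 296 CPM and at 344, 315 and 329 CPM. Neither overlapped between groups, but neither was called (log2 fold changes 0.19 and 0.16, adjusted p = 0.202 and 0.189, with the block 0.0546 and 0.0591). *Insig2* was at 49.2, 42.1 and 49.2 CPM and at 46.7, 38.7 and 44.6 CPM, with overlap between groups (log2 fold change -0.11, adjusted p = 0.551).

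*Scap* (ENSMUSG00000032485, chr9:110333288-110384950), which escorts SREBP, was at 145, 161 and 148 CPM in si-NC and at 186, 195 and 190.0 CPM in si-*Snhg18*. *Insig1* (ENSMUSG00000045294, chr5:28071363-28078662), which retains that complex, was at 152, 143 and 155 CPM and at 103, 82.5 and 89.4 CPM. The groups did not overlap for either gene, and the 2 partners moved in opposite directions. *Scap* rose from 151 ± 8.42 to 190.5 ± 4.37 CPM (0.33 ± 0.07 on the log2 scale, adjusted p = 0.0377), and *Insig1* fell from 150.1 ± 6.61 to 91.8 ± 10.6 CPM (-0.71 ± 0.10 on the log2 scale, adjusted p = 0.0145). With no filter on low counts the call of *Scap* was lost (adjusted p = 0.0786). The *Scap* call was also lost without si-NC 1, 2 or 3, or without si-*Snhg18* 1 or 3 (adjusted p = 0.185, 0.0791, 0.162, 0.0834 and 0.164), at log2 fold changes of 0.30 to 0.38. That of *Insig1* was lost without si-NC 1, 2 or 3, or without si-*Snhg18* 3 (adjusted p = 0.101, 0.0527, 0.0940 and 0.0989), at log2 fold changes of -0.80 to -0.64 over the 6 fits that left out a library.

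The ratio of *Hmgcs1* to *Insig1*, both known as targets of SREBP and a measure chosen after the values were seen, was 1.202, 1.35 and 1.21 in si-NC and 2.33, 3.31 and 2.70 in si-*Snhg18*. Its mean was 1.25 ± 0.0837 against 2.78 ± 0.493 (SD, n = 3 each). As both genes were already separated in opposite directions, the separation of the ratio is no further evidence.

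**Figure D4:**
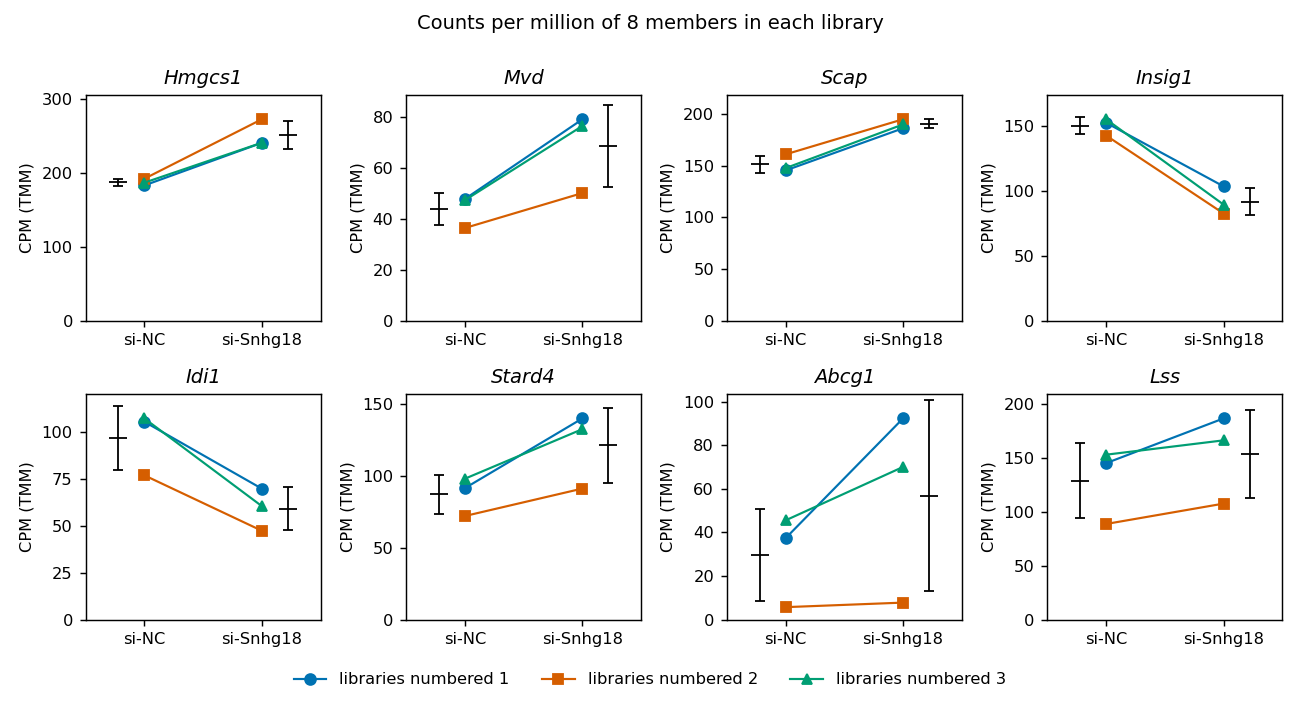
CPM of 8 members in each library, with a line joining same-numbered libraries and black marks for the group mean ± SD. Each of the 8 differs between the groups in the same direction at every number. The groups as a whole overlap for *Abcg1*, *Lss* and *Stard4* and not for the others. All but *Hmgcs1* and *Scap* are lowest in the libraries numbered 2 of both groups.

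The LXR, uptake and storage genes held the member with the largest fold between library numbers. *Abcg1* (ENSMUSG00000024030, chr17:31057675-31117988), which exports sterol and is an LXR target, was at 37.3, 5.80 and 45.5 CPM in si-NC and at 92.3, 7.88 and 70.0 CPM in si-*Snhg18*. The mean of numbers 1 and 3 was 7.15-fold above number 2 in si-NC and 10.3-fold in si-*Snhg18*, and the number took 91.7% of the variation (adjusted p = 0.00239 for the number). For the siRNA it differed by 0.94 ± 0.97 on the log2 scale without the block (adjusted p = 0.593) and by 0.84 ± 0.16 with it (adjusted p = 0.00864), with a range over the alternatives of 9.35e-06 to 0.883. Leaving out a library moved the log2 fold change without the block to values between 0.39 (without si-*Snhg18* 1) and 1.46 (without si-*Snhg18* 2), and leaving out the pair numbered 3 took the call with the block away (0.94 ± 0.22 on the log2 scale, adjusted p = 0.0689). Levels of the 4 leukocyte markers were also lowest in number 2, with sums of 38.6, 16.3 and 37.2 CPM in si-NC and 57.8, 18.7 and 51.1 CPM in si-*Snhg18*, most of it *Cd14* (adjusted p = 0.00239 for the number). With the block *Cd14* also rose with si-*Snhg18*, by 0.57 ± 0.08 on the log2 scale (adjusted p = 0.00369). *Ptprc* and *Itgam* were near 0 as given above, and the part of these markers in the level of *Abcg1* was not tested.

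*Abca1*, the other sterol exporter and a target of the same receptors, did not pass the test, at 208 ± 10.01 CPM in si-NC and 206 ± 20.3 CPM in si-*Snhg18* (log2 fold change -0.01, adjusted p = 0.959, and 0.00094 with library totals as the only scaling). It did not share the low level of *Abcg1* in the libraries numbered 2, which were the highest of their groups. *Nr1h3*, which encodes LXR alpha, averaged 8.49 ± 1.28 CPM against 11.3 ± 2.22 CPM (log2 fold change 0.41, adjusted p = 0.260, and between 0.31 without si-*Snhg18* 1 and 0.56 without si-*Snhg18* 2). *Nr1h2*, which encodes LXR beta, was at 73.8, 70.5 and 77.4 CPM in si-NC and at 64.9, 61.5 and 67.6 CPM in si-*Snhg18*. It was lower in each pair by a similar amount, without overlap, and fell by 0.19 on the log2 scale with the block (adjusted p = 0.0480, 0.203 in DESeq2 with the block, range over the alternatives 0.0318 to 0.401), with 0.164 as the adjusted p without the block.

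*Mylip*, a ubiquitin ligase that lowers lipoprotein receptors, was at 6.69, 8.53 and 7.67 CPM in si-NC and at 9.69, 13.0 and 12.8 CPM in si-*Snhg18*. *Stard4*, which moves sterol between membranes, was at 91.5, 72.1 and 98.04 CPM and at 140.0, 91.2 and 133 CPM. *Mylip* did not overlap between groups, and *Stard4* did. They rose by 0.63 and 0.46 on the log2 scale with the block (adjusted p = 0.0103 and 0.00374, ranges over the alternatives 0.00108 to 0.264 and 5.37e-05 to 0.445), against adjusted p of 0.0794 and 0.185 without it. *Soat1*, which esterifies sterol for storage, averaged 185 ± 10.8 CPM against 177 ± 21.9 CPM (log2 fold change -0.06, adjusted p = 0.770).

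The neighbouring lists of lipid genes were chosen with earlier results of these data known. In edgeR without the block, no gene of the whole table was called once si-NC 1, si-NC 3 or si-*Snhg18* 3 was left out. With all libraries 3.65% of all genes were called higher and 3.71% lower. Among 14 fatty acid synthesis genes, *Acaca*, which makes malonyl-CoA, rose from 98.4 ± 1.63 to 144 ± 3.51 CPM (adjusted p = 0.00851), and *Elovl5*, a fatty acid elongase, fell from 66.0 ± 1.47 to 42.4 ± 3.36 CPM (adjusted p = 0.0125). With the block 4 rose, with *Fasn*, *Acly* and *Scd2* beside *Acaca*, and 3 fell, with *Elovl6* and *Gpam* beside *Elovl5*, where 13.6% of all genes were called in each direction. For the number 8 of the 14 were called, against 13.8% of all genes, and 11 were lowest in both libraries numbered 2, against 29.8%. None of the 13 isoprenoid branch genes was called for the siRNA by edgeR or DESeq2, with or without the block. An unadjusted p under 0.05 in edgeR was reached by 0 without the block and 3 with it, against 24.9% and 40% of all genes.

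Of the genes reported from the list of SREBP cleavage and ER sterol control, none was called by edgeR without the block, where 4 had an unadjusted p under 0.05 and DESeq2 called 1 (*Mbtps1*). With the block *Rnf139* and *Erlin2* rose and *Mbtps1* and *Erlin1* fell, where 13.6% of all genes were called in each direction. *Mbtps1* encodes the first protease that cuts SREBP, and its log2 fold change was -0.64 with the block (adjusted p = 0.00234) and -0.62 without it (adjusted p = 0.0917). Of the 11 sterol transport genes, *Scarb1*, a lipoprotein receptor, rose from 73.3 ± 7.17 to 119 ± 13.7 CPM (log2 fold change 0.70, adjusted p = 0.0216). *Npc1* and *Npc2*, which move sterol out of lysosomes, rose by 0.76 and 0.38 on the log2 scale (adjusted p = 0.0106 and 0.0394). Over all genes 3.65% were called higher without the block. With the block 4 rose, with *Gramd1b* added, and *Lipa* and *Lrp1* fell, where 13.6% of all genes were called in each direction. None of the 11 was called for the number by edgeR, against 13.8% of all genes. For the number 4 had an unadjusted p under 0.05, against 31.8% of all genes, and DESeq2 called 2.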

How the data were processed

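RNA sequencing of mPASMCs with 3 si-NC and 3 si-*Snhg18* libraries was analysed. The authors deposited raw counts of reads per gene, without normalization, on GRCm38.p6 per the file headers, and libraries were made with a stranded mRNA kit. The submitters' processing notes name HISAT2 and mm10. The counting program and its strand setting are not given in the sources used here. Totals were 18097718 to 25988746 reads, and floors cover counting error only.

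Counts were scaled by TMM, filtered with filterByExpr (minimum count 10) and tested with edgeR 4.0.16 (R 4.3.3) by the quasi-likelihood test, with Benjamini-Hochberg adjustment over 14531 genes and calls at an adjusted p under 0.05. Standard errors were derived from the fold change and the F value. RPKM used the exon lengths of the table. Log2 CPM for the split of variation had a prior count of 2. Alternatives were other scaling, other filters, DESeq2 1.42.0, each library left out, and the library number as a replicate block. Ranges of the adjusted p over the alternatives join fits with and without the block. The scripts were tested on simulated data.

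The labels number the repeats 1 to 3 in each group without saying what a number marks. Deviations from the group means correlated across all tested genes with r = 0.41, 0.742 and 0.359 for numbers 1, 2 and 3. The same value was 0.497 for si-NC 3 with si-*Snhg18* 1 and 0.186 for si-NC 1 with si-*Snhg18* 3, so numbers 1 and 3 are not told apart by it. As all 3 same-numbered values were over 0.1, the numbers were taken as pairs and blocked values are given beside the others. Both values between numbers 1 and 3 were over 0.1 too, so this rule does not establish which of these libraries belong together.

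The members and lists were chosen with earlier results of these data known. Values in every library are given for members called in either fit or for the number, for the 5 with the largest part of variation from the number, for the SREBP control genes and for *Snhg18*. For the other members group means are given, and for the other lists the called genes. A gene of these lists is not reported here. Promoter windows came from RefSeq on GRCm38.p6, and gene overlaps and shared 50-base stretches from the GENCODE M21 annotation of that build.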

Additional observations from a re-analysis of the deposited data

How the results depend on the processing

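With 3 libraries in each group, the calls without the block rest on few degrees of freedom. Of 480 values of the 30 members under the 16 alternatives, 396 kept direction and call, 50 gained a call, 17 lost one and 17 changed direction. The cause of these shifts was not tested.

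All genes called for the siRNA numbered 1069 without the block, 2115 with DESeq2, 3954 with the replicate block and 3156 with DESeq2 and the block. Leaving out a library gave 0 to 3282 genes (0 without si-NC 1, si-NC 3 or si-*Snhg18* 3). With the block and without the pair numbered 1, 2 or 3 there were 4542, 3504 and 651. The called members were 3, against 6 with DESeq2, 14 with the replicate block and 12 with DESeq2 and the block. They were 0 to 6 without a library, and 16, 12 and 2 with the block and without the pair numbered 1, 2 or 3. Genes called for the number were 2003, and 3978 with no filter on low counts. The number was tested in 5 alternatives, with 14 to 16 members called. None of these left out a library or a pair, so the dependence of the number calls on single libraries was not tested.

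*Snhg18* kept its direction (log2 fold change -1.14 to -1.06 without a library) and lost its call without si-NC 1, si-NC 3 or si-*Snhg18* 3 (adjusted p = 0.0659, 0.0700 and 0.0703). The enzyme median was 0.034 to 0.26 over the alternatives, lowest without si-NC 2 and at 0.052 without si-*Snhg18* 1. The SREBP control median was 0.13 to 0.19 without a library, and 0.14 with the replicate block and without either the pair numbered 1 or that numbered 3.

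Members with log2 fold changes near 0 changed direction. Without a library, *Pmvk* was at -0.11 to 0.20, *Fdft1* at -0.025 to 0.27, *Sqle* at -0.057 to 0.22, *Cyp51* at -0.0039 to 0.24, *Dhcr7* at -0.20 to 0.13, *Abca1* at -0.078 to 0.065 and *Soat1* at -0.14 to 0.033. With the replicate block and without a pair, *Pmvk* was at -0.0017 to 0.13, *Sqle* at -0.022 to 0.12 and *Abca1* at -0.042 to 0.030. With library totals as the only scaling *Abca1* was at 0.00094. With the replicate block and all libraries no member changed its direction, and the 11 that gained a call are named among the 14 above. With the block and a pair left out, the highest adjusted p was 0.105 for *Lss*, 0.312 for *Msmo1* and 0.161 for *Hsd17b7*. It was 0.130 for *Mylip*, 0.0660 for *Stard4*, 0.0518 for *Mvd* and 0.292 for *Nr1h2*.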

Other observations

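The ratio of *Abcg1* to *Abca1*, both exporters of sterol and targets of LXR, was 0.187, 0.0265 and 0.222 in si-NC 1 to 3 and 0.501, 0.0351 and 0.333 in si-*Snhg18* 1 to 3. The ratio was chosen after the values were seen, and it was lowest in the library numbered 2 of each group. The number took 91.7% of the variation of *Abcg1* and 84.7% of that of *Abca1*, with number 2 lowest in the first and highest in the second. The number was called for *Abcg1* (adjusted p = 0.00239) and not for *Abca1* (adjusted p = 0.184), whose levels differed little between libraries.

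Pairwise log2 differences, si-*Snhg18* minus si-NC at the same number, were -0.18, -0.20 and -0.20 for *Nr1h2* and 0.19, 0.15 and 0.15 for *Srebf2*. Those of *Abcg1* were 1.30, 0.44 and 0.62, with the smallest in the pair whose libraries had the fewest *Abcg1* counts. For *Mvk* they were 0.04, 0.46 and 0.33, and the part of its variation left over by the siRNA and the number was 27.9%, the largest of the 30 members.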
